A study of Homo sapiens with 44 samples.

Results

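The HNRNP, SRSF and SF3 splicing factor genes are the rows of a human gene count table whose symbol begins with HNRNP followed by a letter, or reads SRSF and a number, SF3A or SF3B and a number, U2AF1 or U2AF2. They were chosen by name alone, and 3 rows with pseudogene symbols were left out. The rule found 45 of the 23368 genes in the table: 22 HNRNP, 12 SRSF, 9 SF3 and 2 U2AF genes. The HNRNP rows include the antisense RNA HNRNPU-AS1 and the readthrough HNRNPUL2-BSCL2, and SF3B14 is an older symbol of SF3B6. The RNA came from tumors of VCaP cells, a human prostate cancer line with high androgen receptor levels, that grew in athymic nude mice (HSD:Athymic Nude-Foxn1nu), which lack T cells but keep other host cells. All mice, vehicle mice included, were castrated, and dosing began once serum PSA was back at its level before castration. Enzalutamide (20 mg/kg/day, 13 libraries used) and ARN-509, also called apalutamide (20 mg/kg/day, 15 libraries), were set against vehicle (15 libraries), each by daily gavage for 4 weeks. Both drugs block the androgen receptor, a hormone-activated transcription factor. The number of libraries in an arm equals the stated number of its mice, so each was taken as 1 tumor of 1 mouse, though the labels do not number the mice. A further library of the enzalutamide arm, enzalutamide 4, held 80142 counts and is outside the rule.

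HNRNP proteins coat new transcripts and often silence the exons they bind, while the serine- and arginine-rich SRSF proteins bind exons and mostly promote their inclusion. The SF3A and SF3B proteins are parts of the U2 snRNP, which marks the branch point of an intron, and U2AF2 and U2AF1 recognise the pyrimidine tract and the terminal AG of the intron. In prostate cancer these proteins are studied because splicing of the androgen receptor transcript yields receptor variants without the domain that binds the drugs. The table counts reads per gene, so exon use was not measured here.

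Library totals ran from 4.72 to 16.9 M counts in enzalutamide tumors, from 3.38 to 30.1 M in ARN-509 tumors and from 4.19 to 25.8 M in vehicle tumors (M, the SI prefix mega). Vehicle 8 and vehicle 10 stood apart, with the lowest correlations to the rest of their arm (0.889 and 0.916). All 12 markers of the VCaP cells were present, with a median summed level of 16878 CPM (counts scaled to a common library total) under enzalutamide (14978 to 20670), 16694 CPM under ARN-509 (14134 to 20741) and 12134 CPM under vehicle (9625 to 18782). The 5 endothelial markers summed to at most 6.69 CPM in any tumor, with medians of 0.939 CPM under enzalutamide, 0.914 CPM under ARN-509 and 4.12 CPM under vehicle. All 5 averaged under 1 CPM under each drug, and all but VWF did under vehicle. Of the 5, 0 passed the filter on low counts. The 8 fibroblast markers summed to medians of 7.32 CPM under enzalutamide, 8.76 CPM under ARN-509 and 10.5 CPM under vehicle, with 6 of the 8 averaging under 1 CPM in every arm. The host is a mouse and these are counts on human genes, which can hold mouse reads. The endothelial and fibroblast sums therefore do not measure how many host cells a tumor held. The part of these marker differences in the results was not tested.

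Of the 45 genes, 42 passed the filter on low counts. The rows HNRPDL and HNRPLL, older spellings, are outside the symbol rule. HNRNPCL1 had 0 counts over the 43 libraries, HNRNPUL2-BSCL2 had 6 and HNRNPH2 had 111. The readthrough row RPL36A-HNRNPH2, outside the symbol rule, had 0 counts. How reads shared by a gene and its readthrough row were counted is not given. The low counts of HNRNPH2 therefore need not mean a low level, and the level of HNRNPUL2 is uncertain in the same way. Per kilobase of transcript, the highest level in vehicle tumors was that of HNRNPA2B1, an RNA-binding protein of the hnRNP core, at 304 ± 25.0 CPM per kb (SD, n = 15). HNRNPK (278 ± 15.3) and HNRNPH1 (273 ± 39.2) followed, and their levels lay within 1 SD of each other. SRSF6 was the highest SRSF gene at 197 ± 29.2 CPM per kb, and SF3B2, a subunit next to the branch point, the highest SF3 gene at 177 ± 21.1. U2AF2 stood at 108 ± 22.1 CPM per kb against 77.0 ± 14.6 for U2AF1, and SRSF12 was the lowest of all at 3.42 ± 0.452. HNRNPA1 (30.3 ± 3.32) and HNRNPA1L2 (25.4 ± 3.98) have near-identical copies among which reads could be split, so their levels are uncertain. The length used is that of the longest protein-coding transcript of each symbol (4121 bases for HNRNPA1). Where shorter transcripts prevail, a level per kilobase is too low, so the order of the genes depends on this choice.

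Summed over the 42 genes, which moved in both directions, the level was 12802 CPM at the median under enzalutamide (12121 to 14491), 13251 CPM under ARN-509 (12069 to 14542) and 13350 CPM under vehicle (12610 to 15094). The 3 ranges overlapped for most of their length. The SRSF sum had a median of 3131 CPM under enzalutamide, 3359 CPM under ARN-509 and 3194 CPM under vehicle, and the U2AF sum 436 CPM under enzalutamide, 372 CPM under ARN-509 and 434 CPM under vehicle. The abundant genes weigh most in such sums. Within an arm, the median coefficient of variation of a splicing factor gene was 9.71% under enzalutamide (16.4% for all tested genes), 10.5% under ARN-509 (16.2% for all) and 13.2% under vehicle (21.0% for all). The genes were not matched for level, so this does not show that splicing factor genes vary less than genes of like level. All 42 confidence intervals of the log2 fold changes lay within a 2-fold change in each of the 3 comparisons. In bulk tumors, fewer cells with a transcript and less transcript per cell cannot be told apart.

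Against vehicle, enzalutamide changed 1 of 42 genes at an adjusted p under 0.05 (edgeR quasi-likelihood test, Benjamini-Hochberg over all tested genes), where 10.8% of the 13520 tested genes were called, 5.1% higher and 5.67% lower. That gene was HNRNPA2B1, which fell, and 5 of the 42 had an unadjusted p under 0.05. The log2 fold changes had a median of -0.05 and 33 of 42 were below 0, beside a median of -0.00395 for all genes (with library totals as the scaling, 30 of 42). Against vehicle, ARN-509 changed 18 of 42 genes, 5 higher and 13 lower, where 30.8% of all genes were called, 14.7% higher and 16.1% lower. The median log2 fold change was -0.08, with 29 of 42 genes below 0. Scaling by library totals alone gave 10 genes, 5 higher and 5 lower, and a median of -0.01 with 22 of 42 below 0, while it called 2713 of all genes higher and 1466 lower (1988 and 2178 with TMM). Without vehicle 8 the count was 13, and without vehicle 8 and vehicle 10 it was 17. Between the drugs, enzalutamide tumors differed from ARN-509 tumors in 14 of 42 genes, 7 higher and 7 lower, where 26.8% of all genes were called, 12.2% higher and 14.6% lower. The median was 0.02, and -0.01 with library totals. The comparisons share arms and are not independent. The median absolute log2 fold change was smaller for the splicing factor genes than for all genes in each comparison: 0.06 against 0.11 for enzalutamide against vehicle, 0.13 against 0.17 for ARN-509 against vehicle, and 0.09 against 0.16 for enzalutamide against ARN-509. Genes of like level were not set beside them, so this does not show that they change less than such genes.

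**Figure D1:**
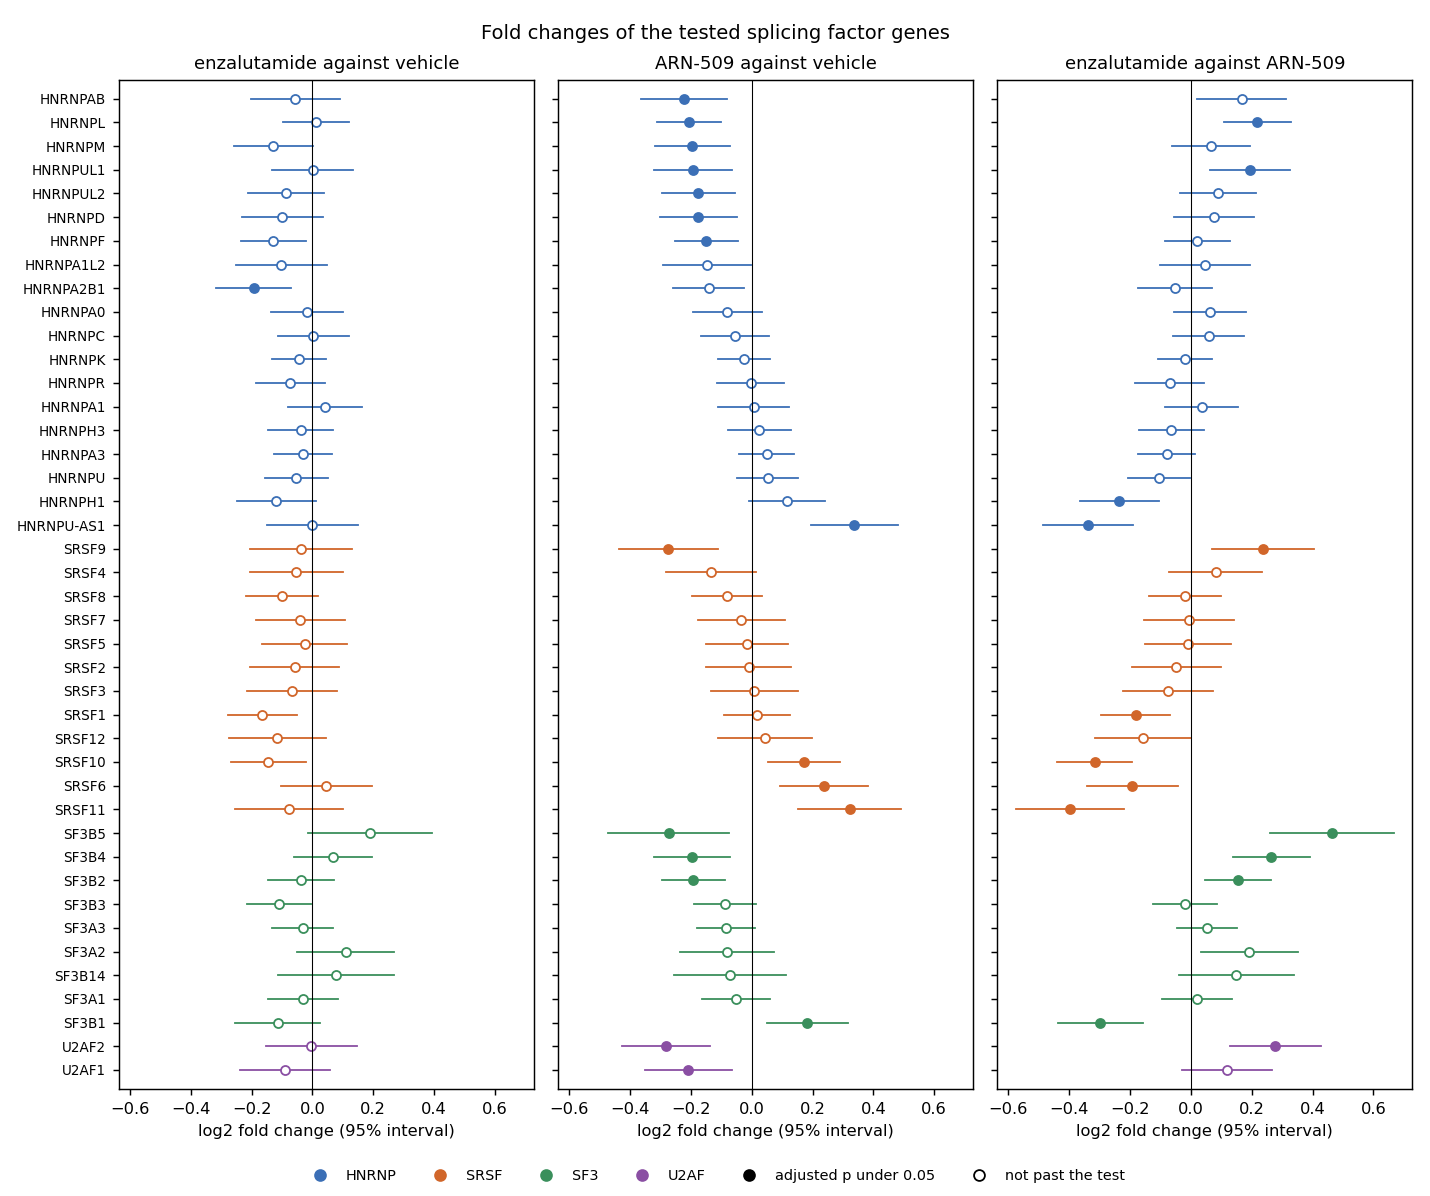
Log2 fold change with its 95% confidence interval (x axis) for each of the 42 tested splicing factor genes (y axis), in 3 panels for enzalutamide against vehicle, ARN-509 against vehicle and enzalutamide against ARN-509, with called genes marked. Called genes number 1, 18 and 14 in the 3 panels, and all intervals lie between -1 and 1.

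Promoters are shown for 4 genes that took opposite directions under ARN-509, SRSF10 and SRSF11 (higher than in vehicle tumors) and SF3B5 and U2AF2 (lower). Each runs 5′ to 3′ on the gene's own strand, from 250 bases before to 50 after the RefSeq start (GRCh38.p14), and capitals mark matches, on either strand, to the motifs searched. SRSF10 lies at chr1:23980278-23980577 on the minus strand, SRSF11 at chr1:70221130-70221429 on the plus strand, SF3B5 at chr6:144095524-144095823 on the minus strand and U2AF2 at chr19:55654785-55655084 on the plus strand.
SRSF10: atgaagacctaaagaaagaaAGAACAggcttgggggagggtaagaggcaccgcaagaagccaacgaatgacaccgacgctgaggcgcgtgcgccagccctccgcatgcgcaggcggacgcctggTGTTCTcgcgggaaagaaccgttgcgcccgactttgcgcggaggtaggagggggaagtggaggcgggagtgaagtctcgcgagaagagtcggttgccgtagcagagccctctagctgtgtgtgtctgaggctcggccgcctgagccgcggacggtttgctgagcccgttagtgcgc
SRSF11: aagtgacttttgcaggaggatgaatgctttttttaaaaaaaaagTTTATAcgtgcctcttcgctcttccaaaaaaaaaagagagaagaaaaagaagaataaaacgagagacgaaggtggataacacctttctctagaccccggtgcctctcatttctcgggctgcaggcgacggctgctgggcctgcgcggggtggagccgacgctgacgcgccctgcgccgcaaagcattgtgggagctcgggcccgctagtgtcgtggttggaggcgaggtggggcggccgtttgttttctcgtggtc
SF3B5: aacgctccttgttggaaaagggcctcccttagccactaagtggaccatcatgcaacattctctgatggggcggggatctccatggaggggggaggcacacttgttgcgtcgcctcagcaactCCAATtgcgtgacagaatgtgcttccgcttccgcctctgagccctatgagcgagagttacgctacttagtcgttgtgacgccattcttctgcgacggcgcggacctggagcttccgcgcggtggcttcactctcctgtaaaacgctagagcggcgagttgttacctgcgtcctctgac
U2AF2: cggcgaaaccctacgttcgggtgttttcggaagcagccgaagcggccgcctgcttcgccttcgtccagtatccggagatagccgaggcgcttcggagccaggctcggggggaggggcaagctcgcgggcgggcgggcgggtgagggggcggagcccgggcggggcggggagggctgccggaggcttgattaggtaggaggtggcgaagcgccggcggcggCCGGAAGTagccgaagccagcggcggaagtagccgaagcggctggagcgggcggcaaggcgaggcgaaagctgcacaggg
The SRSF10 promoter held AGAACA, the half-site of the androgen receptor, starting 230 and 126 bases before the start (the nearer copy on the opposite strand). SRSF11 held TATAAA on the opposite strand 206 bases before its start, SF3B5 held CCAAT at 128 bases and U2AF2 the ETS-type CCGGAAGT at 30 bases. The 300 bases had 63.0% GC for SRSF10 and 53.7% for SRSF11, whose transcripts have 36.2% and 38.3% GC. They had 57.3% for SF3B5 and 72.3% for U2AF2, whose transcripts have 56.6% and 61.1%.

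The same motifs were counted in the promoters of the genes that matched by symbol, 41 of the 45, of which 38 were tested genes. CCGGAAGT stood in 10 of the 38 (26.3%), against 8.79% of the 10106 promoters of tested genes and 4.44% of all 27305 promoters. Those 10 included 6 of the SF3 genes (SF3A1, SF3A2, SF3A3, SF3B2, SF3B4 and SF3B14) together with HNRNPD, SRSF4, SRSF5 and U2AF2. CCAAT stood in 14 of the 38 (36.8%, against 36.7% of the promoters of tested genes), CACGTG, an E-box, in 6 (15.8% against 10.2%) and TATAAA in 5 (13.2% against 5.29%). AGAACA stood in 4 (10.5% against 8.79%) and TGACGTCA, the cAMP response element, in 0 (against 3.28%). The AGAACA promoters were those of HNRNPD, HNRNPUL1, SRSF8 and SRSF10. HNRNPD and HNRNPUL1 were lower and SRSF10 was higher under ARN-509, and SRSF8 was not called. None of these motifs contains another, and both strands were searched. A match is a description of these letters and not of binding.

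Among the HNRNP genes, HNRNPA2B1 ranged from 834 to 1229 CPM in enzalutamide tumors (median 985) and from 975 to 1275 CPM in vehicle tumors (median 1087). The arms overlapped over most of their range, with enzalutamide tumors lower in the middle. The log2 fold change was -0.19 ± 0.06 (SE, adjusted p = 0.0297). The call was lost without enzalutamide 1, 3, 5 or 7 or vehicle 1 or 4 (adjusted p from 0.0529 to 0.0584), so single tumors decide it. ARN-509 tumors had 788 to 1238 CPM (median 1005), and the log2 fold change against vehicle was -0.14 ± 0.06 (adjusted p = 0.0592).

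Under ARN-509, 8 of 19 tested HNRNP genes were called against vehicle, 1 higher and 7 lower. That is 42.1%, where 30.8% of all tested genes were called, 14.7% higher and 16.1% lower. HNRNPL, which binds CA-rich RNA, had 297 to 359 CPM in ARN-509 tumors (median 319) and 323 to 528 CPM in vehicle tumors (median 366), the highest being vehicle 8. Every ARN-509 tumor lay below the vehicle median, and HNRNPL fell by 0.21 on the log2 scale (SE 0.05, adjusted p = 0.00276). In enzalutamide tumors HNRNPL had 332 to 430 CPM (median 376) and was higher than in ARN-509 tumors, with a log2 fold change of 0.22 ± 0.05 (adjusted p = 0.00564). HNRNPM and HNRNPF also fell under ARN-509, with log2 fold changes of -0.19 ± 0.06 (adjusted p = 0.0149) and -0.15 ± 0.05 (adjusted p = 0.0238), and without vehicle 7 the adjusted p of HNRNPF was 0.0504. HNRNPM had 211 to 262 CPM under ARN-509 (median 230) and 216 to 423 CPM under vehicle (median 262). HNRNPF, a protein that binds G-rich RNA, had 255 to 342 CPM under ARN-509 (median 292) and 294 to 378 CPM under vehicle (median 324). The arms overlapped for both genes. The other genes that fell were HNRNPAB (-0.22), HNRNPUL1 (-0.19), HNRNPD (-0.17) and HNRNPUL2 (-0.18). HNRNPD, a binder of AU-rich RNA, lost its call without ARN-509 6 or 15 or vehicle 7, 8 or 9 (adjusted p from 0.0517 to 0.0613).

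HNRNPU-AS1 was the HNRNP row that rose under ARN-509: it had 62.5 to 84.5 CPM in ARN-509 tumors (median 77.9) and 40.3 to 83.4 CPM in vehicle tumors (median 58.7). The ranges overlapped, with the lowest values in vehicle tumors, and the log2 fold change was 0.34 ± 0.07 (adjusted p = 0.000439). It was lower in enzalutamide tumors, which had 52.4 to 75.0 CPM (median 58.7), than in ARN-509 tumors (log2 fold change -0.34 ± 0.07, adjusted p = 0.00357). Its gene overlaps HNRNPU and the library kit does not mark strand, so reads of HNRNPU and HNRNPU-AS1 cannot be told apart. HNRNPH1, which binds G-rich RNA as HNRNPF does, was lower under enzalutamide than under ARN-509. It had 837 to 1097 CPM in enzalutamide tumors (median 913) and 910 to 1313 CPM in ARN-509 tumors (median 1064), with a log2 fold change of -0.24 ± 0.06 (adjusted p = 0.00946). HNRNPUL1 was higher under enzalutamide than under ARN-509 (0.19 ± 0.07, adjusted p = 0.0272), but not without enzalutamide 9 or ARN-509 6 (adjusted p = 0.0598 and 0.0506).

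**Figure D2:**
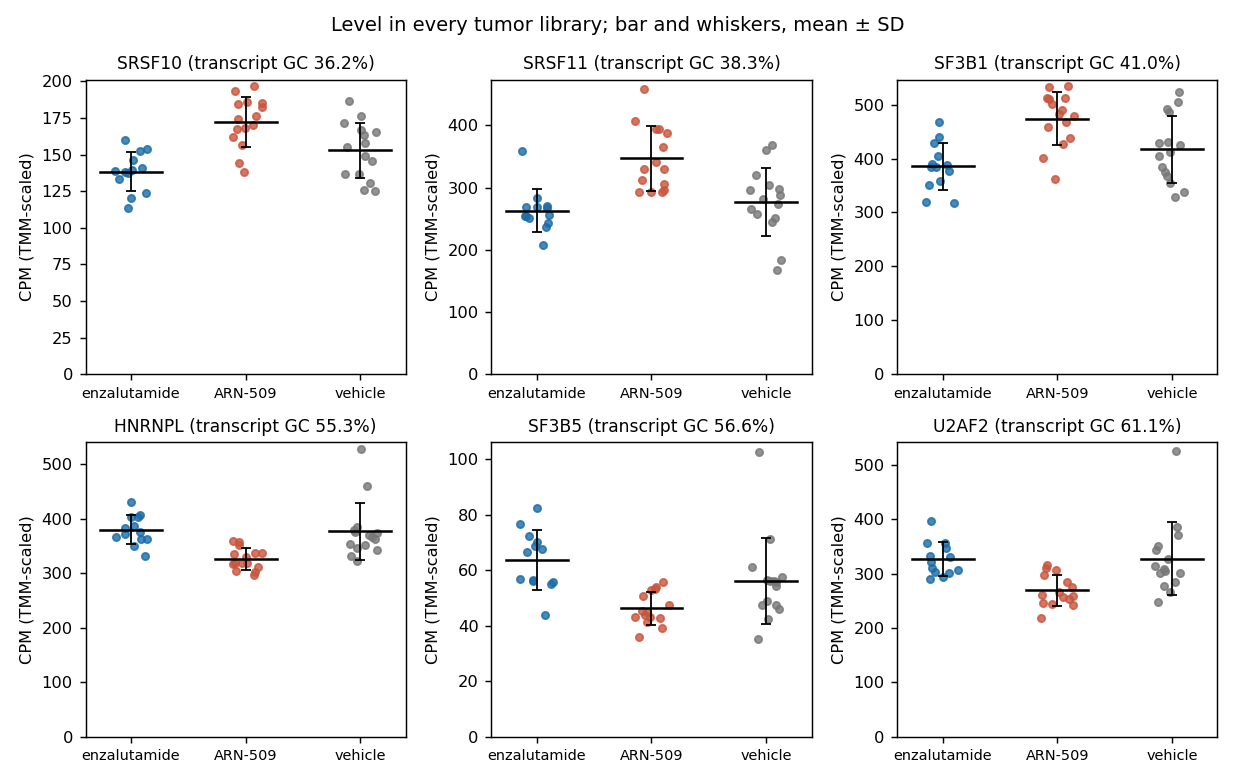
CPM in each tumor (points) for 6 splicing factor genes in order of transcript GC content, with enzalutamide, ARN-509 and vehicle from left to right and mean ± SD in black. The arms overlap in every panel, and vehicle 8 is the highest vehicle tumor for HNRNPL, SF3B5 and U2AF2.

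Of the 12 SRSF genes, 3 rose and 1 fell under ARN-509 against vehicle. That is 33.3% called, close to the 30.8% of all tested genes. SRSF11 had 292 to 459 CPM in ARN-509 tumors (median 330) and 167 to 369 CPM in vehicle tumors (median 282), the lowest being vehicle 8. The ARN-509 tumors started where the middle of the vehicle range lay, and the log2 fold change was 0.32 ± 0.08 (adjusted p = 0.00382). SRSF10, known for repressing splicing when dephosphorylated, had 138 to 197 CPM in ARN-509 tumors (median 175) and 125 to 187 CPM in vehicle tumors (median 155). The ranges overlapped, and the log2 fold change was 0.17 ± 0.06 (adjusted p = 0.0243). It was no longer called without vehicle 6 (adjusted p = 0.0517) or vehicle 8 (0.0621). SRSF6 had 791 to 1245 CPM in ARN-509 tumors (median 949) and 538 to 1122 CPM in vehicle tumors (median 851). Here too the ranges overlapped, with the lowest values in vehicle tumors (log2 fold change 0.24 ± 0.07, adjusted p = 0.0109). SRSF9 was the SRSF gene that fell, with 67.1 to 95.7 CPM in ARN-509 tumors (median 73.6) and 62.2 to 156 CPM in vehicle tumors (median 89.9, highest in vehicle 8). Its log2 fold change was -0.27 ± 0.08 (adjusted p = 0.00907).

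Under enzalutamide, 0 of the 12 SRSF genes passed the edgeR test against vehicle, where 10.8% of all tested genes did. Of the 12, 2 had an unadjusted p under 0.05. SRSF1, the best studied SR protein, had 319 to 437 CPM in enzalutamide tumors (median 376) and 361 to 539 CPM in vehicle tumors (median 429). The log2 fold change was -0.16 ± 0.06 (adjusted p = 0.0510). SRSF1 passed without any 1 of enzalutamide 12 or 14, ARN-509 3 or 5, or vehicle 5, 6, 7, 10 or 14 (adjusted p from 0.0282 to 0.0464). Between the drugs, SRSF1, SRSF6, SRSF10 and SRSF11 were lower and SRSF9 was higher in enzalutamide tumors than in ARN-509 tumors. That is 41.7% of the 12, where 26.8% of all tested genes were called. SRSF11 had 208 to 359 CPM in enzalutamide tumors (median 256) against the 330 CPM median of ARN-509 tumors, a log2 fold change of -0.40 ± 0.09 (adjusted p = 0.00364). SRSF10 had 113 to 160 CPM in enzalutamide tumors (median 139) against 175 CPM, a log2 fold change of -0.32 ± 0.06 (adjusted p = 0.00305). For both genes the enzalutamide range reached up into the ARN-509 range. SRSF1 differed by -0.18 ± 0.06 (adjusted p = 0.0175). SRSF6 differed by -0.19 ± 0.07 (adjusted p = 0.0493), a call lost in 29 of 43 fits that left out 1 library (adjusted p up to 0.0851). SRSF9 differed by 0.24 ± 0.08 (adjusted p = 0.0326), and lost the call without enzalutamide 6 or 11 or ARN-509 6, 12 or 14 (adjusted p from 0.0504 to 0.0550).

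In the SF3 complex, 1 of 9 genes rose and 3 fell under ARN-509, and 0 of 9 passed the edgeR test under enzalutamide (1 at an unadjusted p under 0.05). Of all tested genes, 14.7% rose and 16.1% fell under ARN-509, and 10.8% passed under enzalutamide. SF3B5, a small SF3B subunit, had 35.9 to 55.8 CPM in ARN-509 tumors (median 45.0) and 35.2 to 103 CPM in vehicle tumors (median 55.8, highest in vehicle 8). The vehicle tumors spread over the whole ARN-509 range and above it, and the log2 fold change was -0.27 ± 0.10 (adjusted p = 0.0319). The call was lost without ARN-509 6 or 14 or vehicle 7 or 8 (adjusted p from 0.0530 to 0.0840). Enzalutamide tumors had 43.8 to 82.3 CPM (median 66.4), and their difference from ARN-509 tumors was the largest among the 42 genes in that comparison, at 0.46 ± 0.10 (adjusted p = 0.00357). Against vehicle the enzalutamide value was 0.19 ± 0.10 (adjusted p = 0.244), and it passed without vehicle 8 (adjusted p = 0.0257).

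SF3B4, a subunit that contacts RNA near the branch point, had 43.8 to 69.6 CPM in ARN-509 tumors (median 53.4) and 52.0 to 77.9 CPM in vehicle tumors (median 64.0). Its log2 fold change was -0.20 ± 0.06 (adjusted p = 0.0143). SF3B2 had 432 to 567 CPM in ARN-509 tumors (median 506) and 510 to 762 CPM in vehicle tumors (median 559), and the log2 fold change was -0.19 ± 0.05 (adjusted p = 0.00469). Only the upper part of the ARN-509 range overlapped with vehicle for SF3B2. Both genes were higher in enzalutamide than in ARN-509 tumors: SF3B4 had 56.5 to 76.0 CPM in enzalutamide tumors (log2 fold change 0.26 ± 0.06, adjusted p = 0.00490). SF3B2 had 506 to 665 CPM there (0.15 ± 0.05, adjusted p = 0.0297), a call lost without enzalutamide 9 (adjusted p = 0.0675) or ARN-509 6 (0.0552). SF3B1, the subunit mutated in several cancers, went the other way. It had 362 to 535 CPM in ARN-509 tumors (median 482) and 328 to 523 CPM in vehicle tumors (median 412), a log2 fold change of 0.18 ± 0.07 (adjusted p = 0.0327). This was lost without ARN-509 6 or 14 or vehicle 7, 8, 11, 12 or 15 (adjusted p from 0.0512 to 0.0765). Enzalutamide tumors had 317 to 469 CPM of SF3B1 (median 385), lower than ARN-509 tumors by a log2 fold change of -0.30 ± 0.07 (adjusted p = 0.00433). SF3B3 did not pass against vehicle, at -0.11 ± 0.05 for enzalutamide (adjusted p = 0.186) and -0.09 ± 0.05 for ARN-509 (adjusted p = 0.169).

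Both U2AF genes fell under ARN-509, where 16.1% of all tested genes fell. U2AF2 had 219 to 316 CPM in ARN-509 tumors (median 261) and 249 to 526 CPM in vehicle tumors (median 309, highest in vehicle 8), a log2 fold change of -0.28 ± 0.07 (adjusted p = 0.00306). U2AF1 had 93.9 to 133 CPM in ARN-509 tumors (median 109) and 101 to 202 CPM in vehicle tumors (median 126, highest in vehicle 8), a log2 fold change of -0.21 ± 0.07 (adjusted p = 0.0226), with an adjusted p of 0.05004, no longer called, without vehicle 8. The ranges overlapped for both subunits, with 4 ARN-509 tumors below every vehicle tumor for U2AF2 and 2 for U2AF1. In enzalutamide tumors U2AF2 had 290 to 397 CPM (median 321), and was higher than in ARN-509 tumors (0.28 ± 0.07, adjusted p = 0.00827). U2AF1 differed by 0.12 ± 0.07 between the drugs (adjusted p = 0.217), which leaves an interval from -0.03 to 0.27 on the log2 scale.

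Genes that rose under ARN-509 had transcripts of lower GC content than genes that fell. A GC value was found for 41 of the 42 genes. The 4 genes that rose and had a value had a median of 39.0% GC (36.2% to 41.0%), and the 13 that fell a median of 55.0% (42.0% to 61.1%). Of 20 genes under 45% GC, 4 rose and 1 fell, and of 14 genes at 50% GC or more, 0 rose and 10 fell. All tested genes were split in the same way: 26.4% of those under 45% GC rose and 5.46% fell, and 5.65% of those at 50% GC or more rose and 25.9% fell. Across genes, which are not independent replicates, Spearman's rho between GC content and log2 fold change for ARN-509 against vehicle was -0.74 for the splicing factor genes and -0.42 for all 12930 genes with a value. It was 0.78 and 0.62 for enzalutamide against ARN-509, and 0.35 and 0.21 for enzalutamide against vehicle. Transcript length ran the other way for ARN-509 against vehicle (rho = 0.53 for the splicing factor genes and 0.34 for all genes).

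**Figure D3:**
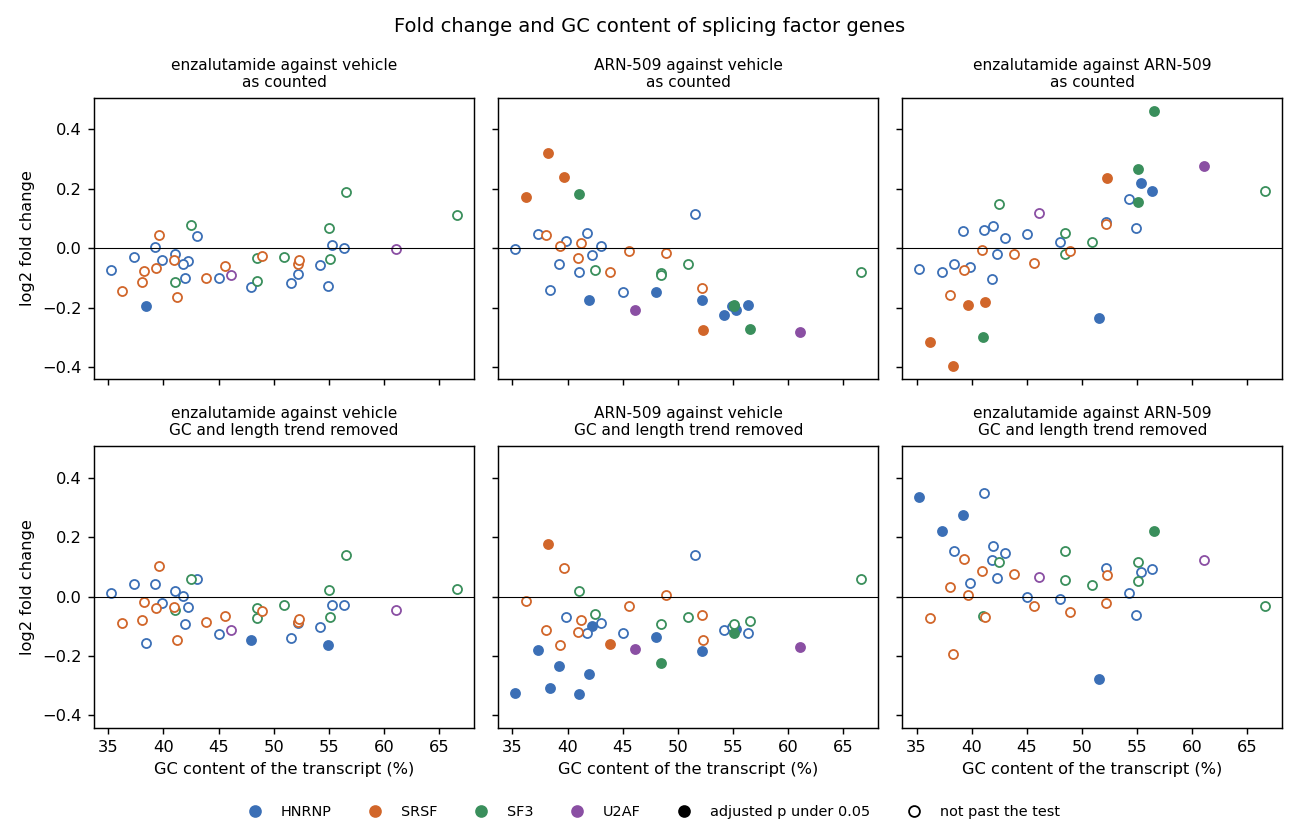
Log2 fold change (y axis) against transcript GC content in percent (x axis) for the 41 splicing factor genes with a GC value, coloured by family and filled where the adjusted p was under 0.05. Columns are the 3 comparisons, and rows are the counts as they stand and after removal of the GC content and length trend. In the upper row the values fall with GC content for ARN-509 against vehicle (Spearman rho -0.74) and climb for enzalutamide against ARN-509 (0.78), and in the lower row the rho is 0.12 and -0.11.

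Tumors of one arm also differed in this trend. For each library, the deviation of log2 CPM from the gene's mean over all libraries was regressed on GC content and length together. This used genes with a GC value and a mean level above a floor. The slope on GC content is given per 10 percentage points. It ran from -0.06 to 0.33 in enzalutamide tumors (median 0.04) and from -0.32 to 0.11 in ARN-509 tumors (median -0.08). In vehicle tumors it ran from -0.12 to 0.29 (median -0.01). The highest vehicle slope was that of vehicle 8, which was also the highest vehicle tumor for 21 of the 42 genes and the lowest for SRSF10 and SRSF11. The 21 were 9 of the 14 genes at 50% GC or more, 5 of the 7 from 45% to 50% and 7 of the 20 under 45% (HNRNPA0, HNRNPA1, HNRNPC, HNRNPD, SF3B14, SRSF3 and SRSF7). Within vehicle tumors, SRSF11 was lower where the slope was higher (Pearson r = -0.93, Spearman rho = -0.88, permutation p = 1e-05 and 3e-05, the first being the smallest the permutations can give). SF3B5 was higher there (r = 0.89, rho = 0.87, permutation p = 3e-05 and 0.00012). Without the 2 tumors farthest from the median slope, r was -0.78 for SRSF11 and 0.76 for SF3B5. SRSF10 was lower at higher slopes in each arm. In enzalutamide tumors r was -0.77 and rho -0.56 (permutation p = 0.00173 and 0.0492), but r was -0.37 without the 2 farthest, so the relation rests on those tumors. In ARN-509 tumors r was -0.76 and rho -0.82 (permutation p = 0.00101 and 0.00041), and in vehicle tumors -0.84 and -0.81 (permutation p = 8e-05 and 0.00055), with r = -0.74 in both arms without the 2 farthest. These relations were chosen from the genes with the smallest p between arms, and 12 were computed. The slope comes from the same counts. By construction, genes of low GC content such as SRSF10 and SRSF11 tend to fall with it, and genes of high GC content to rise. The permutation p therefore does not set these genes apart from others of like GC content, which were not examined. Over these 12, the adjusted p for r ran up to 0.00346 for those named here, and 2 of the other 7 passed at an adjusted p under 0.05. The adjusted p for rho was 0.0657 for SRSF10 in enzalutamide tumors, so that relation did not pass on rho, and at most 0.00132 for the others named here. The slope on length, per doubling, had a median of -0.06 in enzalutamide tumors, 0.03 in ARN-509 tumors and -0.02 in vehicle tumors. Among vehicle tumors it ran from -0.22 in vehicle 8 to 0.17 in vehicle 10. Vehicle 8 was thus extreme in both slopes, and SF3B5 has the shortest transcript of the 41 genes (693 bases). No relation of a gene's level to the slope on length was computed, so the parts of GC content and length cannot be told apart here. The source of the slopes was not tested.

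**Figure D4:**
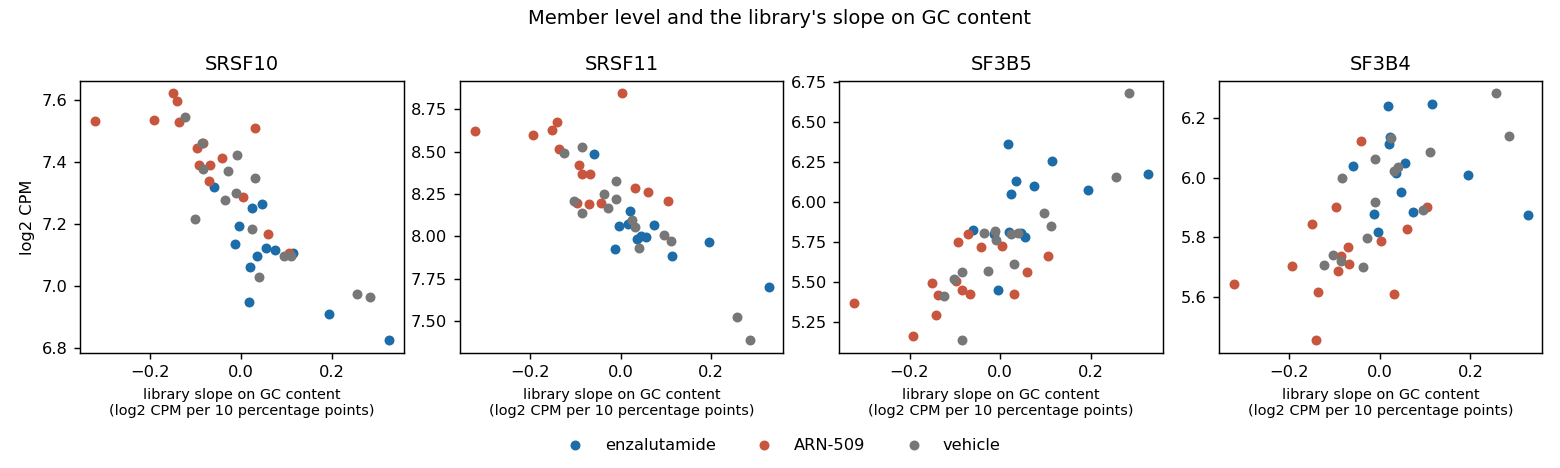
Log2 CPM of SRSF10, SRSF11, SF3B5 and SF3B4 (y axis) against the same library's slope on GC content, per 10 percentage points (x axis), 1 point per tumor, coloured by arm. The slope is that of the genes' log2 CPM deviations from their means, with length in the same regression. SRSF10 and SRSF11 are lower in tumors with a higher slope, and the vehicle tumor at the highest slope (0.29) is vehicle 8.

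After the trends with GC content and with length were removed in every library, ARN-509 against vehicle had 16 genes called of 41, 1 higher and 15 lower, where 28.1% of the 12930 genes in that fit were called, 11.3% higher and 16.8% lower. Of the 17 genes with a GC value called before, 8 kept the call: SRSF11 was higher, and HNRNPD, HNRNPF, HNRNPL, HNRNPUL2, SF3B2, U2AF1 and U2AF2 were lower. U2AF2 stood at -0.17 (adjusted p = 0.00268), SRSF11 at 0.18 (adjusted p = 0.0232) and SF3B2 at -0.12 (adjusted p = 0.0197). SRSF10 stood at -0.02 (adjusted p = 0.785), SF3B1 at 0.02 (adjusted p = 0.765) and SF3B5 at -0.08 (adjusted p = 0.228), so these 3 were not called. The 8 newly called genes were all lower, and were HNRNPA0, HNRNPA2B1 (-0.31, adjusted p = 0.000443), HNRNPA3, HNRNPC, HNRNPK, HNRNPR, SF3B3 and SRSF8. HNRNPA0, HNRNPR and SF3B3 have long transcripts (8726, 7646 and 9720 bases). Over the 41 genes, Spearman's rho between length and log2 fold change was 0.53 before the removal and -0.27 after it. Between the drugs it was -0.56 before and 0.27 after. Whether the removal overcorrects long splicing factor genes was not tested. Between the drugs 5 of 41 genes were called, 4 higher and 1 lower, where 4.89% of all genes were called, 2.81% higher and 2.08% lower. SF3B5 (0.22, adjusted p = 0.0149) and HNRNPH1 (-0.28, adjusted p = 0.0196) kept the call, and HNRNPA3, HNRNPC and HNRNPR, higher in enzalutamide tumors, were new. For enzalutamide against vehicle, HNRNPF (-0.15, adjusted p = 0.0355) and HNRNPM (-0.16, adjusted p = 0.0318) were called lower, 2 of 41 where 14.8% of all genes were called (6.69% higher and 8.15% lower), and HNRNPA2B1 was at -0.16 (adjusted p = 0.123). HNRNPU-AS1 had no GC value and is not in these fits.

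The rest of the splicing machinery was counted from 6 companion lists with 134 tested genes in all. Under ARN-509 against vehicle 16 of these rose and 34 fell, 37.3% against 30.8% of all genes. By direction, 14.7% of all tested genes rose and 16.1% fell, the shares to set beside the counts of each list. By list, 9 of 19 tested U1 and U2 snRNP and Sm core genes and 12 of 22 tri-snRNP genes fell, and 0 in either list rose. The smallest p in each list was that of SNRPB, a Sm core protein (-0.45 ± 0.11, adjusted p = 0.00260), and of SART1, which joins the tri-snRNP to the spliceosome (-0.30 ± 0.07, adjusted p = 0.00108). Their median log2 fold changes were -0.19 and -0.20, and the transcripts of SNRPB and SART1 have 57.8% and 60.5% GC. After removal of the GC content and length trend, 9 and 11 genes of these lists were lower and 1 and 0 higher. Among 23 SR kinases and SR-related genes, 8 rose and 1 fell: SRPK2, a kinase of SR proteins, stood at 0.33 ± 0.07 (adjusted p = 0.000555) and LUC7L3 at 0.30 ± 0.07 (adjusted p = 0.000732). After the removal 4 were higher and 4 lower. Of all genes in that fit, 11.3% were higher and 16.8% lower. Of 38 other hnRNP-type and splicing regulators, 5 rose and 6 fell, with PTBP1, a repressor of exons, at -0.21 ± 0.05 (adjusted p = 0.000753). Of 21 catalytic and step factors 2 rose and 3 fell, and of 11 nonsense-mediated decay factors 1 rose and 3 fell, with UPF1 at -0.29 ± 0.06 (adjusted p = 0.000294).

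Under enzalutamide against vehicle 6 of the 134 genes were called (4.48%, against 10.8% of all genes, 5.1% higher and 5.67% lower), all lower. They were DHX15 (-0.15 ± 0.05, adjusted p = 0.0485), DHX38 (-0.18 ± 0.05, adjusted p = 0.0218), SFPQ (-0.22 ± 0.06, adjusted p = 0.0178), TIAL1 (-0.16 ± 0.05, adjusted p = 0.0244), MBNL1 (-0.30 ± 0.09, adjusted p = 0.0285) and SMG5 (-0.21 ± 0.07, adjusted p = 0.0340). After removal of the GC content and length trend 13 were lower and 1, of the catalytic and step factors, was higher. Of all genes in that fit, 8.15% were lower and 6.69% higher. Between enzalutamide and ARN-509 tumors, 4 of 38 other hnRNP-type and splicing regulators were higher and 18 lower under enzalutamide, and among SR kinases and SR-related genes 1 of 23 was higher and 11 lower. In the tri-snRNP list 7 of 22 were higher and 0 lower. Of all tested genes, 12.2% were higher and 14.6% lower. After removal of the GC content and length trend, the first 2 of these lists had 0 higher and 2 lower, and 0 higher and 5 lower, and the tri-snRNP list had 0 called. Of all genes in that fit, 2.81% were higher and 2.08% lower.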

How the data were processed

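RNA sequencing libraries of VCaP xenograft tumors were prepared with Illumina's TruSeq v2 chemistry, per the labels' protocols, and this chemistry keeps no strand. The authors deposited raw counts per gene, each tumor having its own column. The submitters' processing notes name HTSeq 0.6.1, Picard 1.77, TopHat2 2.1.0 and bcl2fastq 1.8.4, and hg19 as the build. How reads were counted, which annotation was used and how mouse reads were handled is not given in the sources used here. The columns were matched to tumors by their labels (0 left without a sample), and the titles give the arms. Within an arm 0 pairs of columns were identical, and chi-square over its degrees of freedom was at least 3.42 for every pair, so all were kept as separate samples.

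The genes of interest, the companion lists and the tests were chosen with earlier results of these data known, and no list was tested as a set. filterByExpr kept 13520 of 23368 genes in 43 libraries. Counts were TMM-scaled and fitted in edgeR 4.0.16 (R 4.3.3) by a robust quasi-likelihood model with arm as the only term, and p-values were Benjamini-Hochberg adjusted over all 13520 genes with a threshold of 0.05. Levels are CPM after TMM scaling. The script was run on simulated data with known changes for each drug against vehicle, without a GC trend and with a linear one per library. The simulated data held no length trend and no comparison between the drugs. That run therefore does not test the removal of a length trend or the comparison between the drugs, and its outcome is not given here. Genes described are the 6 with the smallest p in each comparison and the highest per kilobase in each family, and up to 3 per companion list and comparison. HNRNPH1, U2AF1 and other genes were named for counts or after their values were seen. GC content and length come from GENCODE v29 (GRCh38) joined on symbols (95.6% of tested genes had values). They are those of each symbol's longest protein-coding transcript, or its longest transcript where none is protein-coding. The removal subtracts a quadratic trend per library. No coordinates of the deposited build were used. Promoters come from RefSeq (GRCh38.p14). Alternatives were the normalization, filter, libraries, test (DESeq2 1.42.0, limma 3.58.1 voom), GC content and length, depth and a replicate block.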

Additional observations from a re-analysis of the deposited data

How the results depend on the processing

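Of 2820 values of the named genes under the alternatives, 2580 kept their direction and side of the threshold, 124 lost the call, 41 gained it and 75 changed sign, 64 of them called neither before nor after. The largest changes came with enzalutamide 4, whose depth of 80142 counts limits it: in all 44 libraries, HNRNPA2B1 stood at 1.35 and SRSF1 at 1.64 (log2 fold change) for enzalutamide against vehicle, at 1.49 and 1.63 for enzalutamide against ARN-509, where SRSF6 stood at 0.0576. SRSF10 for ARN-509 against vehicle stood at -0.0163 with the GC content and length trend removed, -0.0486 with GC content alone and -0.0169 with the replicate block as well. SRSF6 between the drugs stood at 0.00639 and 0.0155 with GC content and length, or GC content alone, removed, and SF3B3 at 0.23 with length alone removed. The cause was not tested.

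The other sign changes were of values not called in either fit. For enzalutamide against vehicle in all 44 libraries, HNRNPF stood at 0.0913, HNRNPM at 0.266, SF3B1 at 0.0559, SRSF10 at 0.145 and U2AF2 at 0.0230. HNRNPL stood at -0.0285 with GC content and length removed, -0.0152 with GC content alone, -0.0126 with length alone and -0.0258 with the replicate block as well as GC content and length. HNRNPU-AS1 stood at 0.0129 with library totals, 0.00265 with no filter, 0.0273 with voom, 0.0421 with thinning and 0.0164 without vehicle 8 and vehicle 10. U2AF2 stood at 0.0258 with library totals, 0.0579 with voom, 0.00579 with the replicate block and 0.0429 without vehicle 8 and vehicle 10. SRSF9 stood at 0.0453 with voom and 0.000853 without vehicle 8 and vehicle 10, and SRSF11 at 0.00100 with GC content removed. Without 1 library, HNRNPL ranged from -0.00508 to 0.0493, HNRNPU-AS1 from -0.0350 to 0.0411, SRSF9 from -0.0724 to 0.0295 and U2AF2 from -0.0300 to 0.0561. For ARN-509 against vehicle, SRSF1 stood at -0.0786 with GC content and length removed, -0.112 with GC content alone and -0.0770 with the block as well. Between the drugs, with GC content and length removed, with GC content alone and with the block as well, HNRNPA2B1 stood at 0.152, 0.190 and 0.154, and HNRNPM at -0.0618, -0.0298 and -0.0527. HNRNPF stood at -0.0148 with library totals, -0.00836 with GC content and length removed and -0.0215 with length alone. SF3B3 stood at 0.153 with GC content and length removed and 0.162 with the block as well, and from -0.0345 to 0.00464 without 1 library.

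The count for enzalutamide against vehicle (1 gene) was 3 in all 44 libraries (3 higher), with voom or with length removed. It was 2 with DESeq2 size factors, the stricter filter, DESeq2, GC content and length removed, thinning, or without vehicle 8 and vehicle 10, the last chosen after seeing the data. It was 0 with library totals, no filter or GC content alone removed. Leaving out 1 library gave 0 to 2. For ARN-509 against vehicle (18 genes) it was 10 in all 44 libraries and 10 with library totals, and 13 to 20 without 1 library. Between the drugs (14 genes) it was 5 with GC content and length removed, 7 with GC content alone, and 10 to 16 without 1 library.

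With the replicate block the counts were 0, 18 and 14, and with the block and the GC content and length trend removed 2, 16 and 6, for enzalutamide against vehicle, ARN-509 against vehicle and enzalutamide against ARN-509. Of 41 pairs of the same number from different arms, 15 correlated above 0.1 (r from -0.454 to 0.68). The median r was 0.0113, beside -0.0186 for pairs of other numbers, and 5 of 43 libraries correlated best with their own number. These values alone cannot settle whether the numbers mark pairs or batches.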
